A study of Mus musculus with 6 samples.

Results

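The interferon regulatory factors (IRFs) are transcription factors that share an N-terminal DNA-binding domain and bind DNA elements built on the letters GAAA. Most were described in immune cells: Irf3 and Irf7 are activated when foreign nucleic acid is sensed and switch on interferon genes, Irf9 acts in the nucleus downstream of the interferon receptor, Irf1 and Irf2 act on the same elements in opposite senses, and Irf5 and Irf8 work in myeloid cells. Irf4 is a lymphocyte and macrophage factor that adipocytes also make. In mouse fat it is known to be induced by fasting, cold and cAMP, to promote lipolysis, and to act with the coactivator PGC-1alpha, the product of Ppargc1a, on Ucp1.

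The family was taken as the genes Irf1, Irf2, Irf3, Irf4, Irf5, Irf7, Irf8 and Irf9, chosen by name: 8 genes of the 16627 in the deposited count table, all 8 of which passed the filter on low counts. They were followed in inguinal white adipose tissue (iWAT) of mice held at 4 °C for 6 hours. The 2 groups were mice lacking Celf1 in adipocytes by an adipocyte-specific deletion (Celf1 AKO, 3 libraries) and control mice with the floxed Celf1 allele on both copies, fl/fl (Flox control, 3 libraries). Both groups were cold-exposed and, per the series title, both carried Celf1 fl/fl, so neither group shows the level in warm mice. No label names the Cre driver, the age or the sex of the mice. Celf1 encodes a protein that binds GU-rich stretches of RNA and takes part in splicing and mRNA decay, and the series asked what it does when inguinal fat turns beige, the state in which white fat gains heat-producing adipocytes. The labels do not state that each library came from a separate mouse, so p-values weigh only library-to-library spread, which may be technical.

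Library totals ran from 54835348 to 64979443 counts. Celf1 was at 52.5, 49.8 and 63.0 CPM (counts scaled to library size with TMM factors) in Celf1 AKO libraries 1 to 3, against 126, 114 and 144 CPM in Flox control libraries 1 to 3, in tissue that also holds cells other than adipocytes (log2 fold change -1.21; edgeR adjusted p = 0.122 on all 6 libraries, and 0.0174 without Celf1 AKO library 3; DESeq2 adjusted p = 1.21e-09 on all 6), and the groups did not overlap. The adipocyte gene Adipoq was at 2443 CPM or more in every library. Celf1 AKO library 3 stood nearer to the controls than to its own group: across genes it correlated at 0.978 and 0.976 with Celf1 AKO libraries 1 and 2, and at 0.986, 0.986 and 0.983 with Flox control libraries 1, 2 and 3. Celf1 AKO library 3 also differed in the skeletal muscle actin Acta1, at 1039 CPM beside 23.1 and 70.6 CPM in Celf1 AKO libraries 1 and 2 and 33.5 to 75.2 CPM in Flox control. The main results are also given without it. In these bulk samples fewer cells of a type and less RNA per cell cannot be told apart.

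Irf4 (ENSMUSG00000021356) lies on GRCm38 chromosome 13 from 30749226 to 30766976 on the plus strand, and no other annotated gene overlaps it. Because its level differed most among the family, the 250 bases before its RefSeq start (GRCm38.p6, chr13:30748983-30749232, plus strand) are shown, with the TATA box in capitals; the same stretch before the first RefSeq start of Irf1 (chr11:53769764-53770013, plus strand), a gene whose libraries ran in nearly the opposite order, is set beside it, with a gamma-activated site, an element of interferon-responsive promoters, in capitals.
Irf4: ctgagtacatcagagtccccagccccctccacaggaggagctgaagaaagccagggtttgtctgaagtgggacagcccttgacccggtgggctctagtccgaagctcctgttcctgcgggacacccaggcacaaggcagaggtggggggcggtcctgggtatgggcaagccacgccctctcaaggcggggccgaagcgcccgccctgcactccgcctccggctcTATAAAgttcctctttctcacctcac
Irf1: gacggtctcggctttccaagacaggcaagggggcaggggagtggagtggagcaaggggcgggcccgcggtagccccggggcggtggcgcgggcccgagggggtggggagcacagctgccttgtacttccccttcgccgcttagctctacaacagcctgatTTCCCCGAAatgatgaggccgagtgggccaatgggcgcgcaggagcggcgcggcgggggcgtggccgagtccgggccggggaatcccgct

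A set of 7 motifs was searched on both strands in the 250 bases before each start, for all 32851 RefSeq promoters and for the 11 windows of the 8 family genes. The Irf4 window held the TATA box TATAAA, beginning 26 bases before the start, which 12.4% of all windows hold. It held no interferon response element core (GAAA, any 2 bases, GAAA; 2.98% of windows), no gamma-activated site (TTCNNNGAA, 7.02%), no Ets-IRF composite (GGAA, any 2 bases, GAAA; 2.30%), no cAMP response element (TGACGTCA, 1.55%) or its core (TGACG, 17.8%, contained in the full site) and no forkhead box O site (GTAAACA, 3.17%). These letters were thus not in this window, which says nothing of the factors or of sites elsewhere. Among the other family genes, gamma-activated sites were found before Irf1, Irf2 and Irf8, and Irf2 also held an interferon response element core and an overlapping Ets-IRF composite. Irf7 held a cAMP response element core and a TATA box, Irf8 a TATA box, and the windows of Irf3, Irf5 and Irf9 none of the 7.

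Since CELF1 protein is known to bind GU-rich elements in 3′ untranslated regions, the longest annotated 3′ untranslated region of each family gene (GENCODE M21) was read on the transcript strand for a GU-rich element, TGTTTGT followed directly by TTGT. Irf1 held 1 match in 944 bases, shown because it was the only one in the family, with the element in capitals.
Irf1 site: ggttttgtTGTTTGTTTGTttttgaga
The element was present in 4.17% of the 14111 such regions of genes in the table, and in 1.9% of those within 10% of the length of Irf1's. The 3309 bases of Irf4 held neither this element nor its shorter form TGTTTGT, which lies within it and was present in 55.3% of regions of like length. The shorter form was found in Irf2 once, outside any full element, and in the other five genes not at all. A match in letters is a description and not a binding site.

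Irf4 was the family gene with the highest level in Celf1 AKO and the widest spread. It was at 901, 684 and 133 CPM in Celf1 AKO libraries 1, 2 and 3, against 190.9, 47.1 and 54.1 CPM in Flox control libraries 1, 2 and 3. Celf1 AKO libraries 1 and 2 lay above all 3 controls, but Celf1 AKO library 3 lay below Flox control library 1, so the groups overlapped. The means were 573 ± 396 CPM in Celf1 AKO fat and 97.4 ± 81.1 CPM in Flox control fat (SD, n = 3 each), a ratio of 5.88. In edgeR's quasi-likelihood fit of all 16366 genes tested, the log2 fold change of Irf4 was 2.56 (SE 0.79; unadjusted p = 0.0127). Its edgeR adjusted p (Benjamini-Hochberg) was 0.301, which misses the threshold of 0.05. An exact two-sided permutation test gave p = 0.2, where 0.1 is the smallest that 3 against 3 allows. Of all genes tested, 2 (0.0122%) passed the adjusted threshold, both higher in Celf1 AKO.

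**Figure D1:**
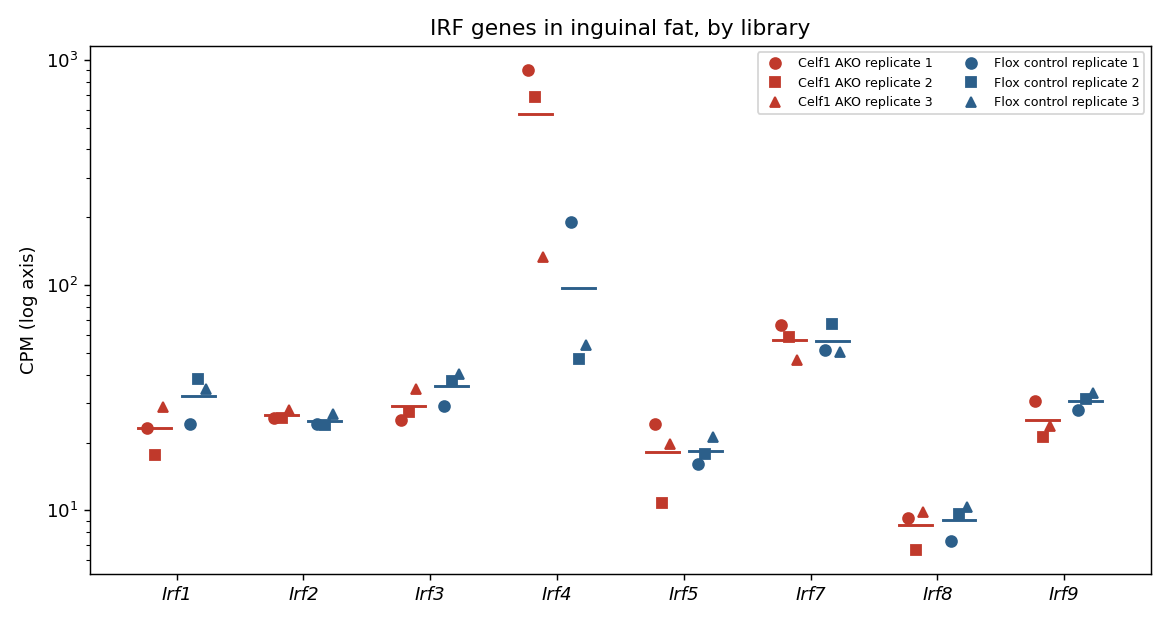
Level of each IRF gene in CPM on a log axis, with 1 point per library (Celf1 AKO left in red, Flox control right in blue, marker shape by replicate number) and a line at each group's mean. For Irf4 the Celf1 AKO libraries sit at 901, 684 and 133 CPM and the Flox control libraries at 190.9, 47.1 and 54.1 CPM; for the other genes the groups lie close together and overlap.

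The size of the Irf4 difference moved with single libraries. Without Celf1 AKO library 3 the log2 fold change was 3.02 and the edgeR adjusted p 0.0549, the lowest of the 17 alternatives tried. Without Flox control library 1, the control in which Irf4 was highest, the log2 fold change was 3.50 and the adjusted p 0.261. Without Celf1 AKO library 1 it was 2.11, with an adjusted p of 0.493. DESeq2 on all 6 libraries gave 2.57 and an adjusted p of 0.0929. The direction was the same in all 17 alternatives, and none of them brought Irf4 past the threshold. Within groups, the highest Irf4 value was 6.80 times the lowest in Celf1 AKO and 4.05 times the lowest in Flox control. The SDs of log2(CPM + 0.5) were 1.49 in Celf1 AKO and 1.11 in Flox control, larger than those of 99.6% and 99.8% of genes tested. Counting error was small beside this, since Irf4 had 3191 counts in its lowest library and 49533 in its highest.

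None of the other 7 genes approached this difference, and the groups overlapped for each of them. In the whole family 0 of 8 genes had groups that did not overlap in CPM, where 17.3% of all genes tested did (7.81% higher and 9.51% lower in Celf1 AKO). By edgeR 0 of 8 passed the adjusted threshold (0.0122% of all genes), and 1 of 8, Irf4, had an unadjusted p under 0.05, where 12.9% of all genes did (6.75% higher, 6.17% lower). DESeq2 likewise called 0 of 8 (3.04% of all genes with a DESeq2 adjusted p, 2.12% higher and 0.926% lower), with Irf4 alone at an unadjusted p under 0.05, and edgeR without Celf1 AKO library 3 called 0 of 8 (3.19% of all genes, 1.43% higher and 1.76% lower). In that fit 3 of 8, Irf4, Irf1 and Irf3, had an unadjusted p under 0.05, where 23.5% of all genes did, and the family's median was -0.13. The family's median log2 fold change was -0.04, with 3 genes positive and 5 negative, beside -0.02 over all genes tested.

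**Figure D2:**
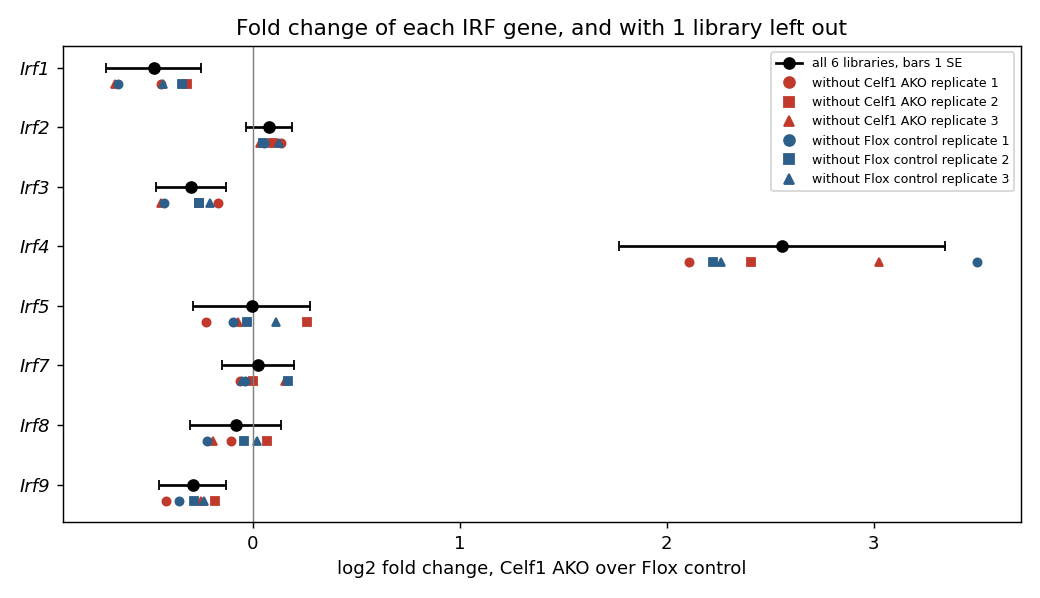
Log2 fold change of each IRF gene, Celf1 AKO over Flox control, by edgeR on all 6 libraries (black, bars 1 SE), with the same fit after leaving out 1 library in turn below it (colour and shape name the library left out). Irf4 stays between 2.11 and 3.50, while Irf5, Irf7 and Irf8 fall on both sides of 0.

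Irf1, the activator of interferon-responsive genes, and Irf2, its counterpart on the same elements, showed different pictures. Irf1 (chromosome 11, 53770014 to 53778374) was at 23.2, 17.6 and 28.6 CPM in Celf1 AKO fat, against 24.1, 38.2 and 34.4 CPM in Flox control. Celf1 AKO library 3 lay above Flox control library 1, and the other 2 Celf1 AKO libraries lay below every control. The log2 fold change of Irf1 was -0.48 (SE 0.23; edgeR adjusted p = 0.425), and -0.66 with 0.144 when Celf1 AKO library 3 was left out. Irf2 (chromosome 8, 46739732 to 46847458) was the steadiest of the family, at 25.6, 25.7 and 28.0 CPM in Celf1 AKO fat and 24.3, 24.0 and 26.8 CPM in Flox control. Its highest library was 1.16 times its lowest, and only 3.76% of genes tested had a range as narrow on the log2 scale. Its log2 fold change was 0.08 (SE 0.11; edgeR adjusted p = 0.795).

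Irf3, Irf7 and Irf5 act after nucleic acid or Toll-like receptor sensing. Irf3 (chromosome 7, 44997648 to 45002848) was at 25.2, 27.4 and 34.4 CPM in Celf1 AKO fat, against 29.1, 37.6 and 40.3 CPM in Flox control, a log2 fold change of -0.30 (SE 0.17; edgeR adjusted p = 0.496). Celf1 AKO libraries 1 and 2 were the lowest pair, but Celf1 AKO library 3 again lay above Flox control library 1. Irf7 (chromosome 7, 141262706 to 141266481), which amplifies the interferon response, was at 66.7, 59.0 and 46.3 CPM in Celf1 AKO fat and 51.6, 67.2 and 50.3 CPM in Flox control. Irf5 (chromosome 6, 29526625 to 29541871) was at 24.2, 10.8 and 19.8 CPM in Celf1 AKO fat and 16.0, 17.8 and 21.2 CPM in Flox control. For Irf7 the 2 groups covered nearly the same range, and for Irf5 the Celf1 AKO libraries held both the highest and the lowest value of the 6. The log2 fold changes were 0.02 (SE 0.17) for Irf7 and -0.01 (SE 0.28) for Irf5, and the sign of each depended on the libraries included.

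Irf9, the DNA-binding subunit of the interferon-activated complex, and Irf8, a factor of macrophages and dendritic cells, completed the family. Irf9 (chromosome 14, 55603571 to 55610030) was at 30.6, 21.1 and 23.6 CPM in Celf1 AKO fat, against 27.9, 31.1 and 33.1 CPM in Flox control, a log2 fold change of -0.29 (SE 0.16; edgeR adjusted p = 0.484). Irf8 (chromosome 8, 120736358 to 120756694) was at 9.30, 6.70 and 9.80 CPM in Celf1 AKO fat and 7.29, 9.62 and 10.4 CPM in Flox control, a log2 fold change of -0.08 (SE 0.22). Celf1 AKO library 2 was the lowest of the 6 libraries for both, and also for Irf1 and Irf5. The strand setting of the counting is not given, and the annotated spans of Irf3, Irf5, Irf7 and Irf9 overlap those of Bcl2l12, Tnpo3, Phrf1 and Rnf31, all in the count table, so reads in the shared stretches of these 4 genes are uncertain. Irf1, Irf2 and Irf8 also overlap annotated genes, which were not analysed here, and Irf4 overlaps none.

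Set out per length, Irf4 changed place most in the family's order between libraries. The authors' deposited FPKM (fragments scaled to gene length and library size) for Irf4 were 191, 137 and 29.2 in Celf1 AKO fat and 37.8, 10.4 and 11.8 in Flox control. Irf4 thus had the highest FPKM of the 8 genes in all 3 Celf1 AKO libraries and in Flox control library 1, and the fourth highest in Flox control libraries 2 and 3, where Irf7 led. Among all 16627 genes ranked by FPKM, Irf4 stood at 316, 434 and 2122 in Celf1 AKO and at 1643, 4940 and 4424 in Flox control. Its share of the family's summed FPKM was 69.3%, 67.3% and 26.0% in Celf1 AKO, against 35.1%, 9.53% and 11.3% in Flox control. The other 7 genes together summed to 78.3 ± 10.1 FPKM in Celf1 AKO and 87.3 ± 15.3 FPKM in Flox control fat (SD, n = 3 each), a difference within the spread of either group.

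With Irf4 set aside, the order of mean FPKM was the same in both groups. It ran from Irf7 (25.4 ± 4.19 FPKM in Celf1 AKO and 25.3 ± 5.23 in Flox control) through Irf3 (14.3 ± 2.91 and 17.7 ± 3.80), Irf1 (10.8 ± 3.08 and 15.2 ± 4.21), Irf2 (10.6 ± 0.987 and 10.1 ± 0.999), Irf5 (8.18 ± 3.26 and 8.23 ± 1.54) and Irf9 (6.46 ± 1.39 and 7.97 ± 1.10) to Irf8 (2.48 ± 0.585 and 2.65 ± 0.602; SD, n = 3 each). Every Irf7 value lay above every Irf3 value, and the highest Irf8 value, 3.09 FPKM, lay below the lowest of any other gene, 4.54 FPKM for Irf5 in Celf1 AKO library 2. Neighbours from Irf3 to Irf9 overlapped in their values over libraries. Within each library, Irf3 lay above Irf1 in all 6, while Irf1, Irf2, Irf5 and Irf9 changed places among themselves.

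The libraries took nearly opposite orders for Irf4 and for Irf1 and Irf3. From high to low, Irf4 ran Celf1 AKO 1, Celf1 AKO 2, Flox control 1, Celf1 AKO 3, Flox control 3, Flox control 2. Irf3 ran Flox control 3, Flox control 2, Celf1 AKO 3, Flox control 1, Celf1 AKO 2, Celf1 AKO 1. Over the 6 libraries the Pearson correlation of log2(CPM + 0.5) with Irf4 was -0.96 for Irf3 (Spearman -0.94) and -0.91 for Irf1 (Spearman -0.94), while it lay between -0.57 and 0.30 for the other 5 genes. Without the 2 libraries farthest from the median of Irf4, Celf1 AKO libraries 1 and 2, r was -0.92 for Irf3 and -0.98 for Irf1. It was -0.75 for Irf8, -0.74 for Irf9, -0.61 for Irf7, -0.50 for Irf5 and 0.08 for Irf2. These values rest on Celf1 AKO library 3 and the 3 controls only, so they mostly describe spread among controls. All these correlations are descriptions over 6 points, or over fewer where libraries were left out. The points share library depth and genotype, and 7 relations were viewed. Many genes followed this order: of 13081 other genes with a mean of at least 1 CPM, 242 had a correlation of 0.95 or more with Irf4 and 365 of -0.95 or less.

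**Figure D3:**
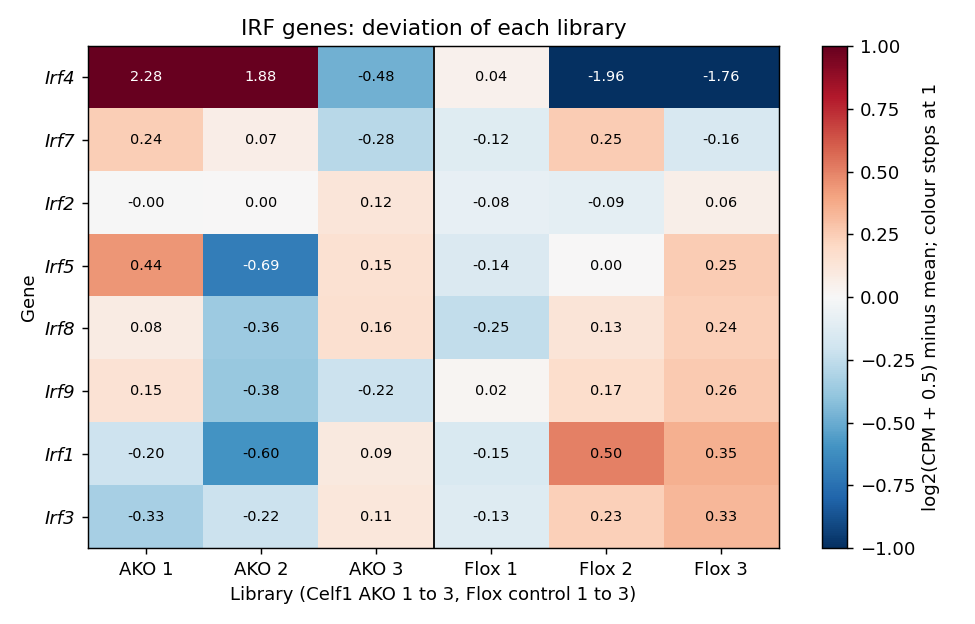
Deviation of each library from the gene's mean over the 6 libraries in log2(CPM + 0.5), Celf1 AKO 1 to 3 left and Flox control 1 to 3 right of the line, with the colour scale stopped at 1 either side. Irf4 is at 2.28 and 1.88 in Celf1 AKO libraries 1 and 2 and at -1.96 and -1.76 in Flox control libraries 2 and 3, with Celf1 AKO library 3 and Flox control library 1 between them; Irf1 and Irf3 have the opposite sign in Celf1 AKO libraries 1 and 2 and in Flox control libraries 2 and 3.

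The 5 genes whose pattern was most like that of Irf4, by that correlation over 6 libraries, were Ptpn2, a phosphatase that acts on JAK and STAT proteins (r = 0.9999), the ETS factor Elk4 (0.996), the processed transcript 1810026B05Rik (0.996), the processed pseudogene Gm6485 (0.995), whose count is uncertain where reads fit a parent gene, and Tiparp, an ADP-ribosyltransferase (0.995). Ptpn2 was at 39.2, 36.5 and 24.5 CPM in Celf1 AKO fat and 26.8, 19.2 and 19.97 CPM in Flox control, the same order of libraries over a far narrower range. Tiparp was at 222, 202 and 102 CPM in Celf1 AKO fat and 119, 69.9 and 62.7 CPM in Flox control. The 3 most opposite were Ints3, a gene of the Integrator complex (-0.998), Micall1, which acts in endocytic recycling (-0.998), and Pex26, which acts in peroxisome assembly (-0.997). By edgeR, these 8 genes had adjusted p from 0.303 to 0.369. Of 5 other tested genes within 500000 bases of Irf4 on chromosome 13, 0 passed by edgeR. The nearest on either side had overlapping groups: Dusp22, a phosphatase gene, was at 22.4 ± 2.82 CPM in Celf1 AKO fat and 22.9 ± 1.93 CPM in Flox control, and Exoc2, an exocyst subunit gene, at 39.8 ± 1.84 and 41.3 ± 1.26 CPM (SD, n = 3 each). The other 3 had groups that did not overlap, as did 17.3% of all genes tested. Agtr1a was higher in Celf1 AKO (log2 fold change 0.35), and Uqcrfs1 (-0.40) and Gm5447 (-0.61) were lower. Gm5447 was near the floor, at a mean of 0.136 CPM in Celf1 AKO fat and 0.209 CPM in Flox control.

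Among partners and co-regulators of the family, Irf2bp2, Ets1 and Stat3 stood higher in Celf1 AKO before adjustment. Of 14 tested, 5 had a positive log2 fold change (median -0.18), 0 passed the adjusted threshold by edgeR, and 3, all higher in Celf1 AKO, had an unadjusted p under 0.05, where 6.75% of all genes did so in that direction. The median without Celf1 AKO library 3 was -0.41. Irf2bp2, a corepressor named for its binding to Irf2, was at 236, 249 and 114 CPM in Celf1 AKO fat, against 131, 67.9 and 65.1 CPM in Flox control. Its log2 fold change was 1.18 (SE 0.37; edgeR adjusted p = 0.301; DESeq2 adjusted p = 0.0444; 0.0596 by edgeR without Celf1 AKO library 3), and Celf1 AKO library 3 lay below Flox control library 1, as for Irf4. The other 2 had groups that did not overlap, as did 7.81% of all genes in that direction. The log2 fold change of Ets1, an ETS factor, was 0.49 (SE 0.15). That of Stat3, a signal transducer named after its values were seen, was 0.71 (SE 0.23). Spi1, the partner of Irf4 and Irf8 in B and myeloid cells, was at 13.2 ± 6.50 CPM in Celf1 AKO fat and 15.7 ± 2.12 CPM in Flox control, and Batf, the partner of Irf4 in T cells, at 1.04 ± 0.597 and 1.45 ± 0.542 CPM (SD, n = 3 each).

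Upstream of the family, Mavs had the largest difference relative to its error among the sensing genes. Of 21 tested, 14 had a negative log2 fold change (median -0.08), 0 passed by edgeR and 2 had an unadjusted p under 0.05, both lower in Celf1 AKO (6.17% of all genes). Mavs, the mitochondrial adaptor through which RNA sensors reach Irf3, was at 34.6, 36.1 and 54.7 CPM in Celf1 AKO fat, against 62.6, 68.4 and 84.0 CPM in Flox control, with no overlap. Its log2 fold change was -0.78 (SE 0.20), with an edgeR adjusted p of 0.258, and it passed with DESeq2 (0.0388) and with edgeR without Celf1 AKO library 3 (0.0281). Ticam1, the adaptor of Tlr3, was at 10.8 ± 0.604 CPM in Celf1 AKO fat and 14.7 ± 1.21 CPM in Flox control fat (SD, n = 3 each; edgeR adjusted p = 0.301).

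Of 13 interferon receptor and JAK-STAT genes tested, 5 were positive (median -0.08), 0 passed by edgeR, and 4 had an unadjusted p under 0.05, beside 12.9% of all genes. Of these, 2 were lower in Celf1 AKO with no overlap (9.51% of all genes), the receptor chains Ifnar1 and Ifngr2. Ifnar1 was at 33.1 ± 3.19 CPM in Celf1 AKO fat and 42.1 ± 2.84 CPM in Flox control fat (SD, n = 3 each). The other 2 were higher, the feedback inhibitors Ptpn2 and Socs3. Socs3, at 51.4, 38.6 and 14.0 CPM in Celf1 AKO against 12.4, 21.5 and 14.6 CPM in Flox control, had an edgeR adjusted p of 0.362, and of 0.0367 without Celf1 AKO library 3, and a DESeq2 adjusted p of 0.142. Ifngr2 and Socs3 were named after their values were seen. Downstream, the interferon-stimulated genes stood near the median of all genes: of 27 tested, 12 were positive and 15 negative (median -0.02), 0 passed by edgeR or DESeq2, and 0 had an unadjusted p under 0.05 by edgeR, beside 12.9% of all genes. Those of smallest p were Bst2, a membrane tether of viruses, at 33.8 ± 4.08 CPM in Celf1 AKO fat and 40.2 ± 2.96 CPM in Flox control, and Psmb9, an immunoproteasome subunit, at 15.0 ± 5.26 and 11.3 ± 1.90 CPM (SD, n = 3 each). A list drawn up for ubiquitin and the degradation or repression of IRFs held 11 genes, not all of which need act in that way. Of these, 3 were positive (median -0.13), 0 passed by edgeR or DESeq2, and 2 had an unadjusted p under 0.05 (12.9% of all genes). The 2 were Rnf5, at 18.2 ± 2.12 CPM in Celf1 AKO fat and 23.0 ± 0.275 CPM in Flox control, and Otud5, at 69.8 ± 4.57 and 58.6 ± 3.27 CPM (SD, n = 3 each).

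**Figure D4:**
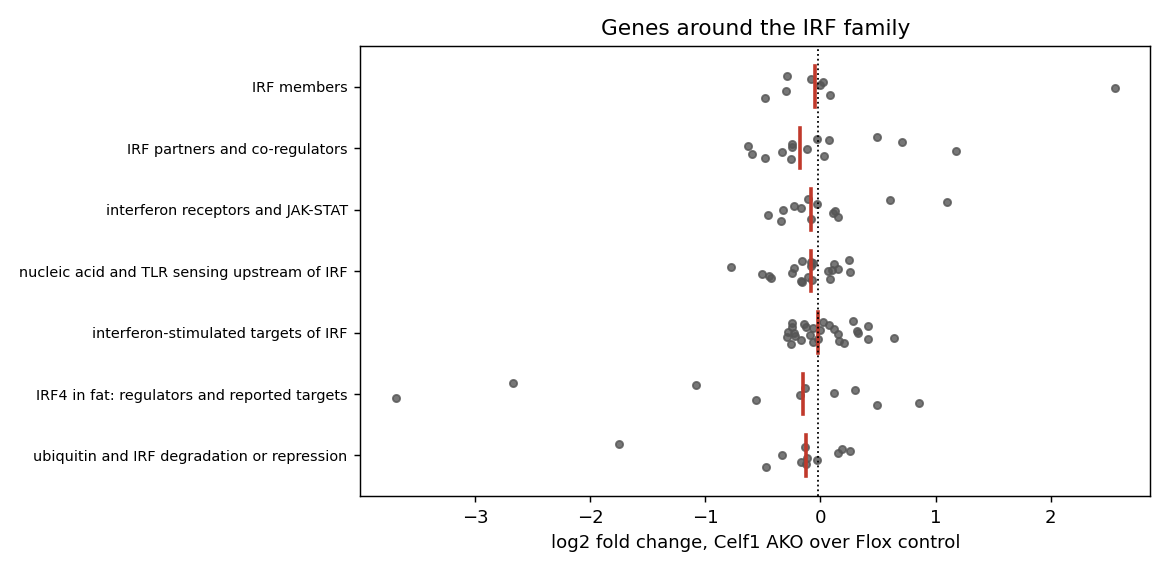
Log2 fold change, Celf1 AKO over Flox control, of each tested gene (grey points) in the IRF family and in 6 lists of genes around it, with each list's median (red) and the median of all genes tested, -0.02 (dotted). Irf4, at 2.56, is the gene farthest to the right, and the list medians lie between -0.18 and -0.02.

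Genes linked to Irf4 in fat stood on both sides of 0. Of 10 tested, 4 were positive and 6 negative (median -0.15), 0 passed by edgeR, and 5 of the 10 had an unadjusted p under 0.05, beside 12.9% of all genes. Of these 5, 2 were higher and 3 lower. The list's median without Celf1 AKO library 3 was -0.28. Foxo1, the insulin-restrained factor reported to drive Irf4 in fasted fat, was at 238, 265 and 193 CPM in Celf1 AKO fat, against 191, 162 and 141 CPM in Flox control, with no overlap and a log2 fold change of 0.49 (SE 0.17; edgeR adjusted p = 0.312). Ppargc1a, whose product partners Irf4 in brown and beige fat, was at 186, 80.4 and 74.7 CPM in Celf1 AKO fat, against 79.3, 52.4 and 57.4 CPM in Flox control. The log2 fold change of Ppargc1a was 0.85 (SE 0.36; edgeR adjusted p = 0.380). Celf1 AKO library 1 led both Irf4 and Ppargc1a, and Flox control library 1 was the highest control for both. Celf1 AKO library 2, second in Irf4, was at 80.4 CPM for Ppargc1a, close to the 79.3 CPM of Flox control library 1.

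Ucp1, a reported target of that pair, was lower in Celf1 AKO without passing by edgeR, at 39.5 ± 37.6 CPM in Celf1 AKO fat and 508 ± 54.2 CPM in Flox control fat (SD, n = 3 each; edgeR adjusted p = 0.246; DESeq2 adjusted p = 0.00938; 0.110 by edgeR without Celf1 AKO library 3). Dio2, which activates thyroid hormone in beige fat, was at 19.2 ± 14.0 and 123 ± 46.6 CPM in Celf1 AKO and Flox control (edgeR adjusted p = 0.251; DESeq2 adjusted p = 0.0270; 0.111 by edgeR without Celf1 AKO library 3). Within Celf1 AKO, the library with the highest Irf4 (library 1) also had the highest Ucp1, at 79.6 CPM, but library 2, second in Irf4, had the lowest, at 4.86 CPM. Prdm16, a regulator of beige fate, was at 14.0 ± 4.85 CPM in Celf1 AKO fat and 20.6 ± 3.15 CPM in Flox control fat (SD, n = 3 each). The lipases reported as Irf4 targets had overlapping groups: Pnpla2 was at 3740 ± 597 and 4219 ± 344 CPM and Lipe at 2137 ± 253 and 1971 ± 278 CPM in Celf1 AKO and Flox control (SD, n = 3 each). Mstn, another reported target, was not analysed here.

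**Figure D5:**
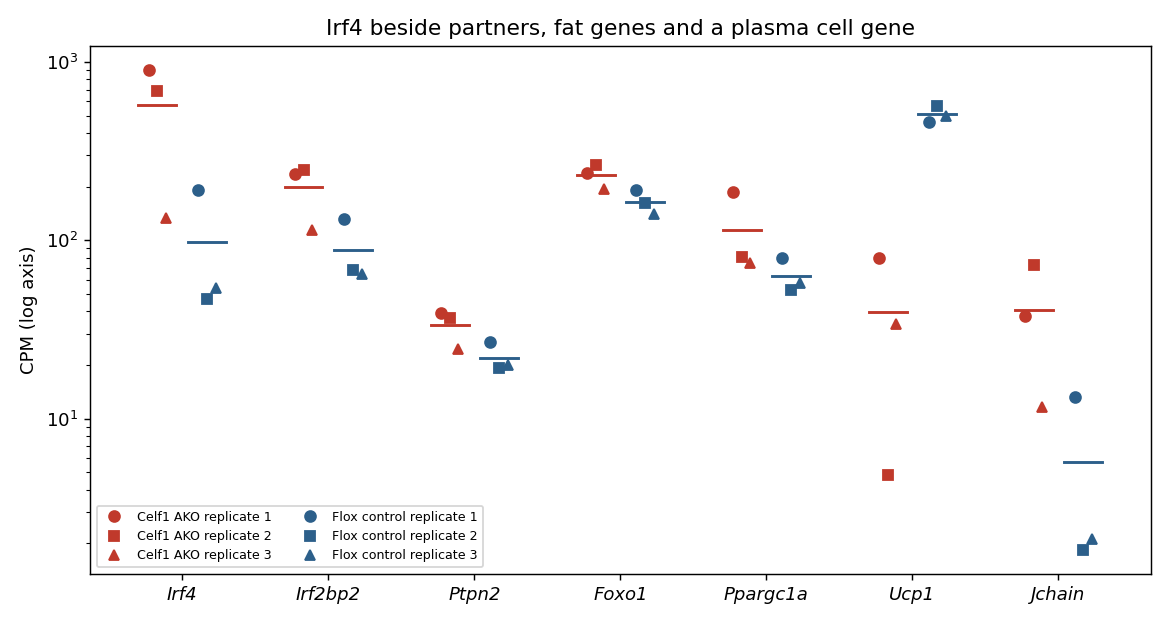
CPM on a log axis for Irf4, the corepressor gene Irf2bp2, Ptpn2, 3 genes linked to Irf4 in fat and the plasma cell gene Jchain, with 1 point per library (Celf1 AKO left in red, Flox control right in blue) and a line at each group's mean. Irf4, Irf2bp2, Ptpn2 and Jchain all have Celf1 AKO libraries 1 and 2 on top and Celf1 AKO library 3 below Flox control library 1. Ptpn2 was the gene most like Irf4 over the libraries, so it shares this placement by selection. Ucp1 is lower in all 3 Celf1 AKO libraries.

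Irf4 is also made by lymphocytes, above all by plasma cells, so markers of those cells were set beside it. Jchain, the joining chain of secreted antibodies, was at 37.8, 73.1 and 11.6 CPM in Celf1 AKO fat, against 13.3, 1.84 and 2.13 CPM in Flox control, which put Celf1 AKO libraries 1 and 2 on top and Celf1 AKO library 3 below Flox control library 1, as for Irf4. Its log2 fold change was 2.83 (SE 0.92; edgeR adjusted p = 0.305, and 0.0872 without Celf1 AKO library 3). Of the plasma cell list, 5 of 6 genes were tested and 4 were positive (median 0.47), and the list's summed level was 238 to 276 CPM in Celf1 AKO fat and 193 to 303 CPM in Flox control, most of it from Xbp1, which many cells make. In that list 2 genes, Jchain and Mzb1, had an unadjusted p under 0.05, both higher in Celf1 AKO (6.75% of all genes). The groups did not overlap for 2, Mzb1 and Sdc1, higher in Celf1 AKO (7.81% of all genes). Sdc1, a plasma cell surface gene that other cells also make, was at 12.4 ± 1.44 CPM in Celf1 AKO fat and 9.62 ± 1.05 CPM in Flox control fat (SD, n = 3 each). Mzb1 was at 0.218, 0.982 and 0.415 CPM in Celf1 AKO fat and 0.172, 0.0886 and 0.214 CPM in Flox control. Prdm1 was at 1.82, 1.75 and 1.31 CPM in Celf1 AKO fat and 1.42, 1.39 and 0.719 CPM in Flox control. Both were far below Irf4 in every library. Prdm1 shared the placement described for Jchain, while Sdc1, Xbp1 and Mzb1 did not. Sdc1 was highest in Celf1 AKO library 3 (13.6 CPM) and Xbp1 in Flox control library 1 (277 CPM). Mzb1 was higher in Celf1 AKO library 3 than in Celf1 AKO library 1. Of the B cell list only Pax5 was analysed, at 0.0307 to 0.182 CPM in Celf1 AKO fat and 0 to 0.842 CPM in Flox control, with 0 in Flox control libraries 1 and 2.

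Immunoglobulin genes were taken by their GENCODE biotype after values were seen. Those that passed the filter on low counts were nearly all higher in Celf1 AKO. Of 106 immunoglobulin genes with counts, 52 passed this filter, of which 50 had a positive log2 fold change (median 2.83). A gene that is low in one group can pass through the other, so this count describes the 52 only. None was called by edgeR (0.0122% of all genes), 25 had an unadjusted p under 0.05, all higher (6.75% of all genes), and 15 were called by DESeq2 (3.04% of all genes). The same limit of the filter holds for these counts. Over all 106 the summed level was 360, 646 and 128 CPM in Celf1 AKO libraries 1, 2 and 3, against 113, 38.4 and 57.2 CPM in Flox control libraries 1, 2 and 3. The 2 libraries highest in Irf4 were thus the 2 highest in immunoglobulin RNA and the 2 lowest in Irf4, Flox control libraries 2 and 3, the 2 lowest, but Celf1 AKO library 2 exceeded library 1 in immunoglobulin and not in Irf4. Igkc, the kappa light chain constant gene, was at 67.8, 122 and 18.8 CPM in Celf1 AKO fat, against 20.2, 2.64 and 6.00 CPM in Flox control. Ighm, the heavy chain constant gene of IgM, was at 63.2, 115 and 67.7 CPM in Celf1 AKO fat, against 18.2, 28.5 and 35.5 CPM in Flox control, with no overlap (log2 fold change 1.58; edgeR adjusted p = 0.227; DESeq2 adjusted p = 0.000210). The part of plasma cells and B cells in the Irf4 difference was not tested.

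Myeloid markers were spread differently over the libraries. The 9 macrophage genes summed to 645 to 1852 CPM in Celf1 AKO fat and 1170 to 1633 CPM in Flox control, with 8 of 9 negative (median -0.14), and they were lowest in Celf1 AKO library 2, in which Irf4 was second highest and Irf1, Irf5, Irf8 and Irf9 were lowest. Their part in the values of those 4 genes was not tested. The 8 dendritic cell genes summed to 26.8 to 37.8 CPM in Celf1 AKO fat and 30.7 to 32.8 CPM in Flox control, and the 7 T cell genes to 5.42 to 11.4 and 6.26 to 8.62 CPM. Of the T cell genes 6 of 7 were positive (median 0.16). The T cell receptor genes Cd3e and Trac did not overlap between groups, higher in Celf1 AKO (7.81% of all genes). Cd3e was at 1.57, 1.13 and 1.199 CPM in Celf1 AKO fat and 0.892, 0.576 and 0.474 CPM in Flox control (edgeR adjusted p = 0.317). Trac was at 0.861 ± 0.216 and 0.477 ± 0.139 CPM (SD, n = 3 each; edgeR adjusted p = 0.385). The groups overlapped for the other listed T cell genes, Cd3d, Cd3g, Cd4, Cd8a and Lck, of which Cd8a was negative (log2 fold change -0.31). The part of these T cell genes in the Irf4 difference was not tested. The 7 adipocyte genes had 6 negative log2 fold changes (median -0.09). The 5 endothelial genes were all positive (median 0.67), summing to 857 to 1034 CPM in Celf1 AKO fat and 455 to 698 CPM in Flox control, and the 5 neutrophil genes likewise (median 2.67), at 15.6, 24.95 and 108 CPM in Celf1 AKO libraries 1, 2 and 3 and 3.20 to 15.4 CPM in Flox control. Without Celf1 AKO library 3 the neutrophil median was 1.12. All 6 mast cell genes were negative (median -0.74). Medians were 0.21 over 3 plasmacytoid dendritic cell genes, 1.47 over 3 epithelial genes and 0.996 over 2 lymph node stroma genes, and of the skeletal muscle genes 1, Acta1, was tested. Their part in the IRF values was not tested. Over the 6 lists above and the 13 marker lists, 0 of the 155 genes tested passed by edgeR, 30 had an unadjusted p under 0.05 (12.9% of all genes) and 7 passed with DESeq2 (3.04% of all genes). The 7 were Irf2bp2, Mavs, Ucp1, Dio2 and the endothelial genes Kdr, Cldn5 and Esam.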

How the data were processed

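Messenger RNA of mouse inguinal fat was sequenced in 6 libraries, 3 per genotype, per the labels' protocols. The authors deposited a table of gene counts and one of FPKM over 16627 Ensembl identifiers. HISAT2, RSEM 1.3.1, GRCm38 and mm10 are listed, without roles, per the submitters' processing notes. The deposited counts were whole numbers and the deposited FPKM were the counts divided by one length per gene and one factor per library. Read assignment between overlapping or duplicated genes was therefore the authors', and the strand setting is not given in the sources used here. Symbols came from GENCODE M21 (16528 identifiers matched). The lowest library held 54835348 counts, so counting error was small beside the spread between libraries.

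Counts were tested with edgeR 4.0.16 in R 4.3.3 (TMM factors, filterByExpr, which left 16366 genes and removed 261, robust quasi-likelihood test of genotype) with Benjamini-Hochberg adjustment over all genes tested and a threshold of 0.05. Log2 levels used a pseudocount of 0.5 CPM. In data simulated on these libraries (16213 genes), the test called 12% of 50 genes changed 1.5-fold and 54% of 50 changed 2-fold. It called 96% of 50 changed 4-fold and 94% of 50 changed 8-fold. It also called 18 unchanged genes. Each simulated gene was drawn independently with its own spread, without shifts that many genes of a library share. These shares therefore need not hold for the real libraries. Nor do they describe Irf4, whose SD within Celf1 AKO was larger than that of 99.6% of genes tested. No pair of libraries agreed within sampling noise. Alternatives used other scalings and filters, DESeq2 1.42.0, limma 3.58.1 on counts and on log2(FPKM + 1) or log2(FPKM + 0.1), the replicate number as a block, and each library left out.

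Genes named were the 8 IRF genes, Celf1, and the 5 genes most like and the 3 most unlike Irf4. A set of Irf4 partners and fat targets was also named, and, per list, the genes of smallest p. Other genes are marked where named. The exceptions are marker genes, the tested neighbours of Irf4, genes overlapping an IRF gene, and the immunoglobulin genes Igkc and Ighm. The family, the 6 lists around it and the 13 marker lists were chosen with earlier results of these data known; immunoglobulin genes were added after seeing the data. Promoter sequences are RefSeq's (GRCm38.p6), and all 8 genes matched.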

Additional observations from a re-analysis of the deposited data

How the results depend on the processing

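None of the 17 alternatives called any of the 8 IRF genes, and Irf1, Irf2, Irf3, Irf4 and Irf9 kept their direction in all 17. The Irf4 log2 fold change ran from 2.11 to 3.50 when single libraries were left out and from 2.38 to 2.58 otherwise, with adjusted p from 0.0549 to 0.792. Irf5, at -0.01, turned to 0.014 with RLE scaling, 0.010 with upper-quartile scaling, 0.009 with a minimum of 1 CPM and 0.013 with DESeq2. Leaving out single libraries gave -0.23 to 0.26 for Irf5, with a positive value when Celf1 AKO 2 or Flox control 3 (0.11) was left out. For Irf7, at 0.02, the range was -0.062 to 0.17, with negative values when Celf1 AKO 1 (-0.062), Flox control 1 (-0.04) or Flox control 3 (-0.05) was left out. For Irf8, at -0.08, it was -0.22 to 0.068, with positive values when Celf1 AKO 2 (0.068) or Flox control 3 (0.02) was left out. Over all genes, the 2 called higher and 0 lower became 345 and 151 with DESeq2, 0 and 0 with library size alone, limma-voom, log2(FPKM + 1) or log2(FPKM + 0.1), and 1 and 0 with log2(FPKM + 1) unfiltered. Leaving out single libraries gave 0 to 237 higher and 0 to 290 lower, both highest without Celf1 AKO 3; the count of 2 higher became 0 when Celf1 AKO 1 or any of the Flox control libraries was left out. The cause of these changes was not tested. Same-numbered libraries deviated together with correlations of 0.07, -0.01 and 0.27, so the numbers were not taken as pairs. With the replicate number as a block, 9 genes were called higher and 3 lower, and Irf4 was at 2.45 (edgeR adjusted p = 0.168). Without Celf1 AKO 3, chosen for the lists after seeing the data, the median log2 fold change of interferon-stimulated genes turned to 0.01 and those of the receptor, sensing and ubiquitin lists were -0.03, -0.12 and -0.22.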
